A study of Mus musculus with 12 samples.

Results

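The genes described here take fatty acids up from outside the cell, carry them through the cytosol and couple them to coenzyme A. They were chosen by name, and 9 of the 10 names were among the 14533 genes of the count table: the carriers Fabp4 and Fabp5, the membrane receptor Cd36, the transport proteins Slc27a1, Slc27a3 and Slc27a4, the acyl-CoA synthetase Acsl1, the lipase Lpl and its inhibitor Angptl4. Fabp3 was not among the listed genes, and its expression was not analysed here.

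Fatty acids reach a cell bound to albumin or as triglyceride in lipoproteins, from which lipoprotein lipase frees them at the vessel wall. Membrane proteins such as CD36 and the FATP proteins help them across, acyl-CoA synthetases trap them as acyl-CoA, and small fatty acid binding proteins ferry them to membranes, enzymes and nuclear receptors. In skin, FABP5 is the main fatty acid binding protein of keratinocytes and FABP4 that of fat cells and capillary endothelium, and several of these genes are textbook targets of PPAR receptors, PPARγ among them.

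RNA came from untreated dorsal epidermis of C57BL/6 mice, frozen and scraped down to the superficial dermis, with 1 library per mouse. All 12 mice were Pparg flox/flox, the 6 WT mice being Cre-/- and the 6 Pparg-/-epi mice Cre+/- for a Cre under the Cytokeratin 14 promoter, so that deletion was directed to keratinocytes while cells of the dermis, fat and vessels kept the gene. The WT group held 3 females and 3 males and the Pparg-/-epi group 4 females and 2 males, all 8 to 13 weeks old by the labels. The groups are compared to find transcripts that differ at baseline where keratinocytes lack Pparg.

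The libraries held 10120840 to 18851255 counts. Pparg itself had 5 to 269 counts in WT and 16 to 107 in the knockout (Pparg-/-epi) mice (log2 fold change -0.10, SE 0.71, adjusted p = 0.949). Its counts are summed over the whole gene and include cells that kept it, and they did not tell the genotypes apart. Why they did not was not tested. Markers of basal and suprabasal keratinocytes were abundant in every mouse, with summed levels of 10227 to 17923 and 16485 to 49862 CPM. Levels are given as CPM, reads scaled to a common library total after TMM normalization. Altered means a log2 difference whose size was at least 0.6 together with an adjusted p below 0.05, by edgeR's quasi-likelihood test. Among the WT mice, replicate 5 had by far the most skeletal muscle marker RNA and replicate 2 the lowest suprabasal keratinocyte level.

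Of the 9 genes, 1 was altered, Fabp5, which was higher in Pparg-/-epi mice. Among all genes tested 10.3% were altered, 5.19% higher and 5.08% lower, so 1 of 9 is near the background and no result about the genes as a group. The median log2 fold change of the 9 was 0.08, against -0.01 for all genes. In bulk tissue, fewer cells of a type and less RNA per cell cannot be told apart.

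**Figure D1:**
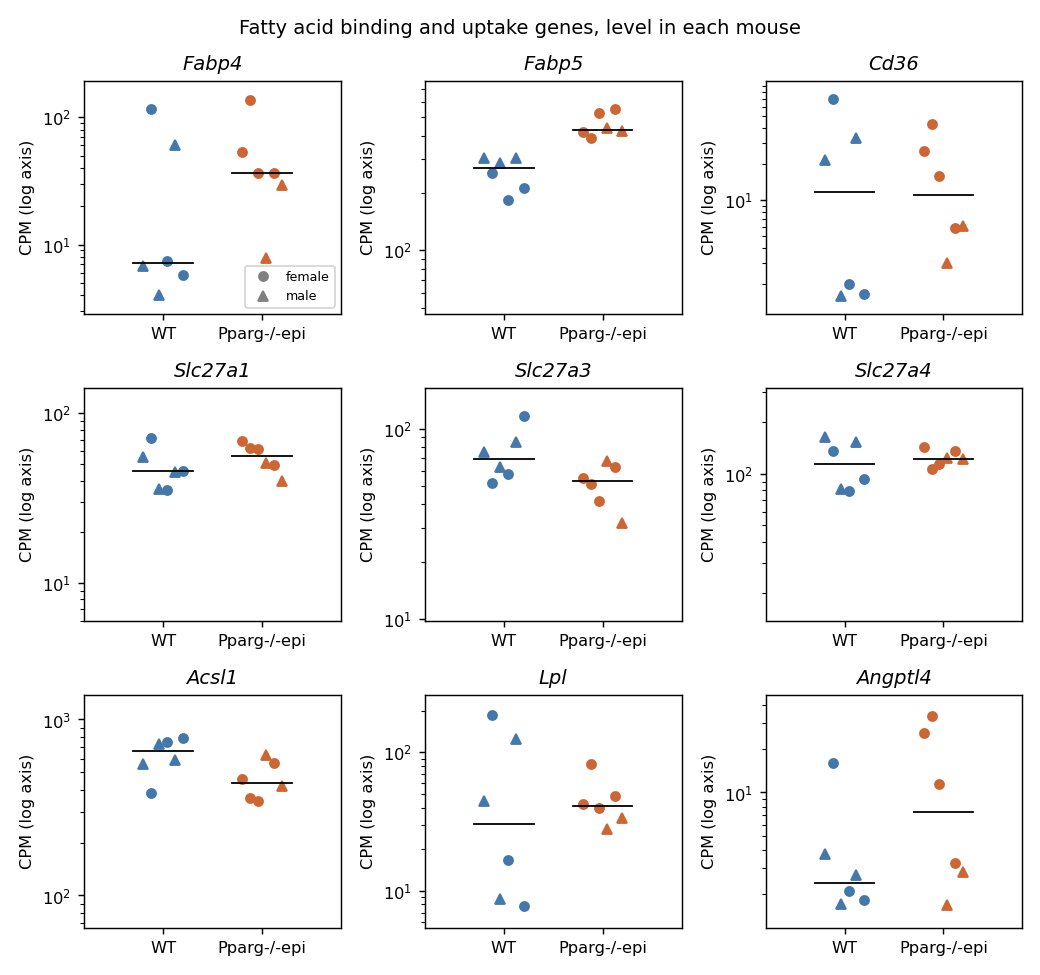
Level of each gene in CPM, on a log axis, in the 6 WT and 6 Pparg-/-epi mice. Circles are females, triangles males and the line is the group median. Fabp5 is the gene whose groups do not overlap, with WT mice at 305 CPM or lower and Pparg-/-epi mice at 390.3 CPM or higher.

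Fabp5, on chromosome 3 at mm10 chr3:10012585-10016610, encodes the epidermal fatty acid binding protein. Its level ran from 184 through a median of 271 to 305 CPM in WT mice and from 390.3 through 429.5 to 553 CPM in Pparg-/-epi mice. Every Pparg-/-epi mouse was above every WT mouse, a separation found in 7.9% of all genes. The difference was 1.77-fold (log2 fold change 0.83, SE 0.14, 95% confidence interval 0.52 to 1.14, adjusted p = 0.00262). Fabp5 was altered in all 12 fits that each left out 1 mouse, with log2 fold changes from 0.75 to 0.88, and in the other 10 alternatives.

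The rise in Fabp5 was seen in both sexes. In females the WT mean of 217 CPM stood against 472 CPM in Pparg-/-epi mice, and in males 299 CPM stood against 429.5 CPM. The log2 difference was smaller in males by 0.60 (SE 0.24, unadjusted p = 0.0280), which did not pass adjustment over all genes (adjusted p = 0.895, edgeR's quasi-likelihood test of the interaction). Of all genes, 0.0% passed that test, 741 had an unadjusted p under 0.05, and 4 passed in the likelihood ratio test.

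Fabp5 also stood apart within each set of mouse numbers. The labels name the mice by a breeding number, which was the same for 4 WT mice and occurred in no mouse of the other group. Among mice with the earlier numbers, the only WT mouse had 305 CPM and the 3 Pparg-/-epi mice 390.3 to 527 CPM. Among mice with the later numbers, the 5 WT mice had 184 to 305 CPM and the 3 Pparg-/-epi mice 421 to 553 CPM.

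Keratinocyte markers gave no single direction beside Fabp5. The summed level of 7 basal markers was 10227 to 17923 CPM in WT and 11770 to 16722 CPM in Pparg-/-epi mice. In that list Krt14 was higher (log2 fold change 0.98, adjusted p = 0.00559) and Krt15 lower (-1.74, adjusted p = 0.00106). In the suprabasal list, 8 of 9 genes listed, the sums overlapped as well (16485 to 47793 against 24633 to 49862 CPM), and Ivl alone was altered, being higher (1.00, adjusted p = 2.32e-04). Dsg1a went the other way at -0.598 (adjusted p = 0.0310), just under the size required, and Sbsn (-0.43) and Krtdap (-0.26) were also below 0. Krt1 stood at 1.02 but did not pass the test (adjusted p = 0.101). Krt10 (-0.02), Lor (-0.06) and Dsc1 (0.05) differed little. The part of these cells in the Fabp5 difference was not tested. Of the 75-base stretches of Fabp5 transcripts, 12.0% also occur in the annotated genes Gm6166 and Gm14328. Since multi-mapped reads were dropped, some Fabp5 reads may be missing in every mouse. How many was not measured, as reads were paired and aligned to the whole genome.

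Fabp4, the carrier of fat cells, lies close by at chr3:10204343-10208576 on the opposite strand. Its level ran from 4.05 through 7.15 to 117 CPM in WT mice and from 7.90 through 36.3 to 137 CPM in Pparg-/-epi mice. WT replicates 2 and 5, at 117 and 60.9 CPM, stood within the Pparg-/-epi range, while the other 4 WT mice, at 7.46 CPM or lower, were below every Pparg-/-epi mouse. All 6 Pparg-/-epi mice were above the WT median, yet the fold change was uncertain (log2 0.57, SE 0.87, 95% confidence interval -1.30 to 2.44, adjusted p = 0.716). It rested on single mice, being 1.56 without WT replicate 2 and -0.07 without Pparg-/-epi replicate 8, neither past the test (adjusted p = 0.182 and 0.972).

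Per kilobase of gene length, the level of Fabp5 exceeded that of Fabp4 in every mouse. It was 1.47 to 47.8 times as high in WT and 1.91 to 37.3 times as high in Pparg-/-epi mice. The lowest of these ratios belonged to WT replicate 2 and Pparg-/-epi replicate 8, in which Fabp4 was highest.

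Cd36, the fatty acid translocase, spans chr5:17781690-17888959 on the minus strand. It varied more among WT mice than 99.2% of all genes, from 1.60 through 11.7 to 70.2 CPM, a 43.9-fold range. Pparg-/-epi mice lay inside that range, from 2.99 through 11.0 to 43.1 CPM. WT replicates 1, 2 and 5 had 21.4, 70.2 and 32.8 CPM and the other 3 WT mice 2.02 CPM or less, and each of these sets held both sexes. The log2 fold change was -0.38 (SE 0.93, 95% confidence interval -2.39 to 1.63, adjusted p = 0.832). It was 0.48 without WT replicate 2, -0.22 without WT replicate 5 and 0.01 with age in the model. With breeding blocks it was -1.52, with RNA integrity number in the model -0.95 and with sex -0.84, none of them past the test.

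As Cd36 is a textbook PPAR target, the 250 bases before a start site of it in RefSeq are shown (GRCm38.p6, chr5:17835897-17836146, minus strand). That start lies within the counted gene, chr5:17781690-17888959, and not at its upstream end, where no window was searched. Beside it stand the 250 bases before a start site of Acsl1 (chr8:46470787-46471036, plus strand), which is discussed further on. Both run from the far end to the start site, and capitals mark the receptor half-site AGGTCA, searched on both strands (TGACCT is its reverse).

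Cd36: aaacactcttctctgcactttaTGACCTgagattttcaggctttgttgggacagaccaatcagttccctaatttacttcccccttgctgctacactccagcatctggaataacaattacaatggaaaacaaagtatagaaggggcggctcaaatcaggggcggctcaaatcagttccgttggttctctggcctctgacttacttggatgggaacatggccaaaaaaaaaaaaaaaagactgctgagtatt

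Acsl1: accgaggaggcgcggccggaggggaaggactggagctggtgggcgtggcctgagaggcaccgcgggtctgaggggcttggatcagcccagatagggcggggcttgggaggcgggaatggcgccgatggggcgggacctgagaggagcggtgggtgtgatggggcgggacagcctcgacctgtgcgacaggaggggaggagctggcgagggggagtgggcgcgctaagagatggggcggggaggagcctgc

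The Cd36 window held 1 half-site, 228 bases before the start, and the Acsl1 window none. Such a half-site occurs in 14.0% of 32851 promoter windows of this length. PPAR receptors bind with RXR to a direct repeat of the half-site with 1 base between (AGGTCANAGGTCA), which was found in 0.0335% of all windows and in none of the 9 windows of the 6 genes with an entry, Fabp3 included. The Acsl1 window shown, before the first of 2 start sites, is 72% G or C, the window before the other (chr8:46490716-46490965) 48.4% and the Cd36 window 43.2%. These are matches of letters, and no binding was measured.

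The fatty acid transport proteins, which combine uptake with acyl-CoA synthetase activity, were steadier between mice than Cd36. Slc27a3, at chr3:90385233-90389927, ran from 51.4 through 69.2 to 117 CPM in WT and from 31.9 through 52.8 to 67.7 CPM in Pparg-/-epi mice. All 6 Pparg-/-epi mice were below the WT median, but the groups overlapped and the difference missed the threshold (log2 fold change -0.54, SE 0.22, 95% confidence interval -1.01 to -0.07, adjusted p = 0.118). The value was -0.37 without WT replicate 6, the highest WT mouse, and -0.64 without WT replicate 2.

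Slc27a4, at chr2:29802680-29817522, is the FATP that newborn mice need for a working skin barrier. WT mice ran from 79.6 through 114 to 165 CPM and Pparg-/-epi mice from 107 through 122 to 144 CPM, so the Pparg-/-epi mice lay within the WT range. The log2 fold change was 0.08 (SE 0.19, 95% confidence interval -0.33 to 0.48, adjusted p = 0.830). The sign of so small a value was not fixed, at -0.01 without WT replicate 3 and without WT replicate 4, and 0.17 without WT replicate 5.

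Slc27a1, the insulin-responsive FATP of muscle and fat, lies at chr8:71568927-71586708. It ran from 35.4 through 45.7 to 71.6 CPM in WT and from 39.8 through 56.4 to 69.2 CPM in Pparg-/-epi mice. The groups overlapped over nearly their whole range (log2 fold change 0.21, SE 0.18, 95% confidence interval -0.19 to 0.60, adjusted p = 0.502), and the value was 0.34 without WT replicate 2. Summed over the 3 transport proteins, WT mice had 173 to 296 CPM and Pparg-/-epi mice 193 to 268 CPM.

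Acsl1, the long-chain acyl-CoA synthetase of fat, liver and heart, lies at chr8:46471037-46536051. It was abundant in every mouse, from 382 through 659 to 785 CPM in WT and from 346 through 438 to 627 CPM in Pparg-/-epi mice. All 6 Pparg-/-epi mice were below the WT median, and the lowest WT mouse was replicate 2. The log2 fold change was -0.45 (SE 0.20, 95% confidence interval -0.87 to -0.02, adjusted p = 0.146). Without WT replicate 2 it was -0.57, with an adjusted p of 0.0309 but short of the fold required. An overlapping antisense gene, Gm45244, holds 2.24% of the Acsl1 stretches of 75 bases, and whether the counting used strand is not given in the sources used here.

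Lpl, the lipase that frees fatty acids from circulating triglyceride, lies at chr8:68880555-68906932. It ran from 7.74 through 30.6 to 187 CPM in WT mice, and from 28.0 through 41.2 to 82.8 CPM in Pparg-/-epi mice. WT replicates 2 and 5, at 187 and 125 CPM, were above every Pparg-/-epi mouse, and WT replicates 3, 4 and 6, at 8.74, 16.8 and 7.74 CPM, were below every one. The highest WT mouse had 24.1 times the level of the lowest, against 2.95 times among the Pparg-/-epi mice. Its log2 fold change was -0.50 (SE 0.70, 95% confidence interval -2.00 to 1.00, adjusted p = 0.687), 0.17 without WT replicate 2 and -0.21 without WT replicate 5.

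Angptl4, the secreted inhibitor of lipoprotein lipase, lies at chr17:33774900-33781575. Its level was low, from 1.70 through 2.39 to 16.1 CPM in WT mice and from 1.66 through 7.35 to 33.8 CPM in Pparg-/-epi mice. Pparg-/-epi replicates 7 and 8, at 25.7 and 33.8 CPM, exceeded every WT mouse, while replicates 10, 11 and 12, at 1.66, 3.26 and 2.83 CPM, lay among the WT mice. The log2 fold change of 1.47, the largest of the 9, missed the threshold (SE 0.80, 95% confidence interval -0.26 to 3.21, adjusted p = 0.248).

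The Angptl4 call turned on which mice were compared. Leaving out WT replicate 2 gave a log2 fold change of 2.43 and Angptl4 was altered (adjusted p = 0.0346), in a fit in which 15.5% of all genes were altered. The 3 mice with the highest Angptl4, WT replicate 2 and Pparg-/-epi replicates 7 and 8, were also the 3 with the highest RNA integrity number, 8.5 or 8.6 against 7.7 or less elsewhere, and with that number in the model the log2 fold change was 0.72 (adjusted p = 0.385). All 3 were also females, and with sex in the model the value was 0.83 (adjusted p = 0.496). The 3 WT males had 1.70 to 3.77 CPM and the 2 Pparg-/-epi males 1.66 and 2.83 CPM. Among mice with the later breeding numbers, Pparg-/-epi mice had 1.66 to 3.26 CPM and WT mice 1.70 to 16.1 CPM, and with earlier and later numbers as blocks the log2 fold change was -0.17 (adjusted p = 0.932). Among mice with the earlier numbers, the WT mouse had 3.77 CPM and the Pparg-/-epi mice 11.4 to 33.8 CPM. The parts of RNA integrity, sex and breeding in the Angptl4 values were not tested further.

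**Figure D2:**
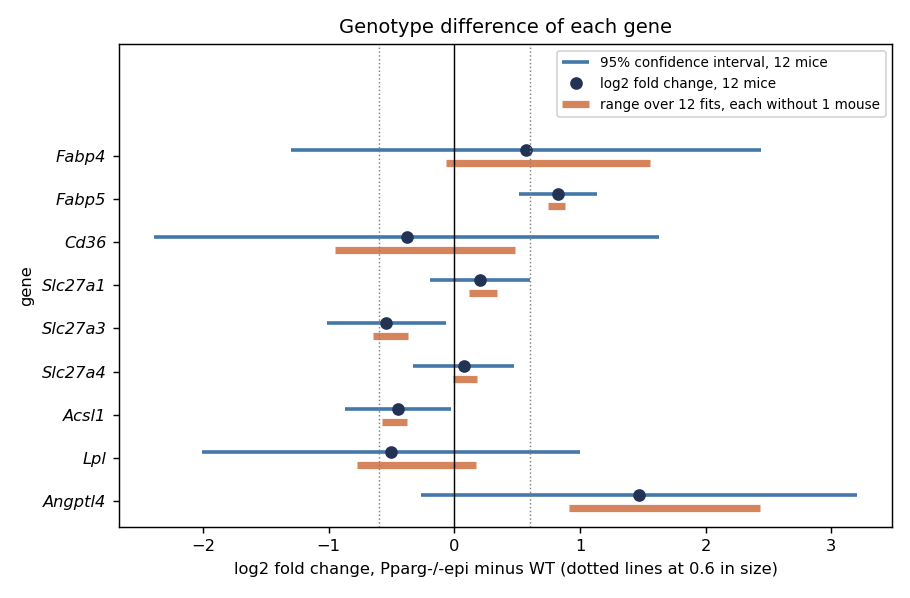
Log2 fold change of each gene, Pparg-/-epi minus WT, with its 95% confidence interval over 12 mice (blue) and the range over the 12 fits that each left out 1 mouse (orange). The interval of Fabp5 runs from 0.52 to 1.14, while those of Fabp4, Cd36, Lpl and Angptl4 are the widest and cross 0.

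Fabp4, Cd36 and Lpl were high in the same mice, in which markers of cells other than keratinocytes were high too. WT replicates 2 and 5 were the highest WT mice in all 3 genes and also in the summed level of 12 adipocyte markers, at 369 and 671 CPM, against 46.03 to 95.2 CPM in the other WT mice. Pparg-/-epi replicate 8 was the highest Pparg-/-epi mouse in all 3 genes and in the adipocyte sum, at 179 CPM, against 60.1 to 115 CPM in the others. All 12 adipocyte markers were listed, with Cidec, Lep and Thrsp at 0 in at least 1 mouse, and 1, Adrb3, was altered, being lower (adjusted p = 0.0267). Car3 alone made up 549 of the 671 CPM in WT replicate 5, the mouse with the most skeletal muscle marker RNA. In Pparg-/-epi replicate 8 it made up 78.3 of the 179 CPM. Cfd reached 66.9 CPM in WT replicate 2 and 29.7 CPM in WT replicate 5, against 6.32 CPM or less in the other WT mice. The markers were not uniform. Adrb3 was lowest of the WT mice in replicate 5 (10.0 CPM) and of the Pparg-/-epi mice in replicate 8 (4.85 CPM). Lipe was highest of the WT mice in replicates 2 and 5 (35.0 and 33.7 CPM). Among Pparg-/-epi mice it was lowest in replicate 8 (32.4 CPM). The part of fat cells in these genes was not tested.

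Other cell types moved with some of the same mice. Skeletal muscle markers, 12 of 12 listed, summed to 13906 CPM in WT replicate 5 against 16.7 to 399 CPM in the other WT mice, and to 12.6 to 579 CPM in Pparg-/-epi mice with replicate 8 highest. Endothelial markers, 12 of 12 listed with Gpihbp1 at 0 in 1 mouse, summed to 11.8 to 169 CPM in WT mice, highest in replicate 2, and to 51.3 to 243 CPM in Pparg-/-epi mice, highest in replicate 8, and Emcn was altered (log2 fold change 1.79, adjusted p = 0.0340). Macrophage markers, 12 of 12 listed, summed to 165 to 897 CPM in WT and 352 to 586 CPM in Pparg-/-epi mice, highest in the same replicates 2 and 8. Of 12 sebocyte markers 9 were listed, of which 6 were lower, among them Scd3, Awat1 and Fa2h, each at 0 in at least 1 mouse. The sebocyte sum nevertheless ran from 84.8 to 2477 CPM in WT and from 1879 to 3565 CPM in Pparg-/-epi mice. Most of it was Krt79 in every Pparg-/-epi mouse, but not in WT replicates 1 (587 of 1251 CPM) and 5 (214 of 628 CPM). Krt79 was higher in Pparg-/-epi mice (log2 fold change 2.70, adjusted p = 0.0168). Langerhans cell markers, 9 of 9 listed, summed to 1664 to 3760 and 2282 to 2580 CPM. Of these, Epcam and Mfge8 were higher, while Cd207 (log2 fold change 0.0024, adjusted p = 0.996) and the rest of the list were not altered. Fibroblast markers, 10 of 10 listed, summed to 1109 to 34900 CPM in WT mice, highest in replicate 1, and 5573 to 11575 CPM in Pparg-/-epi mice, and hair shaft markers, 12 of 12 listed, to 10.8 to 253 and 28.9 to 513 CPM. The parts of these cells in the values of the 9 genes were not tested.

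**Figure D3:**
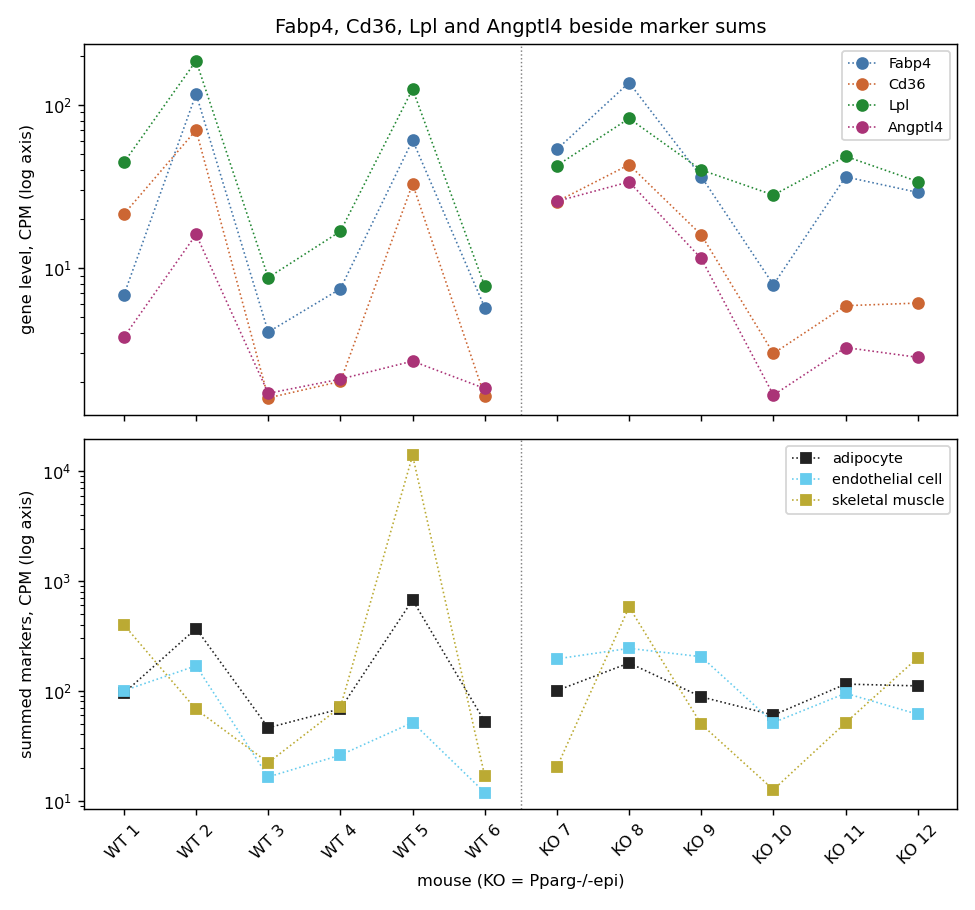
Fabp4, Cd36, Lpl and Angptl4 (top) and summed adipocyte, endothelial and skeletal muscle markers (bottom) in each mouse, in CPM on log axes. KO stands for Pparg-/-epi, dotted lines join mice of a group only to guide the eye, and WT replicate 2 and Pparg-/-epi replicate 8 are high in all 4 genes.

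The genes whose levels followed each of the 9 most closely, by Pearson r of log2 CPM over the 12 mice with group means removed, differed between them. Fabp4 was followed by Adipoq (r = 0.95), the fat cell hormone adiponectin, then Spsb1 and Cfd. Cd36 was followed by Lrg1 (0.99), Uaca and Sdpr, and Lpl by Chpt1 (0.97), Lpin1 and Crat. Angptl4 was followed by Pxdn (0.97), Bace1 and Arhgef40. Points in each r share library, depth and tissue makeup.

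The 5 steadier genes had other neighbours. Fabp5 was followed less closely than the rest, by Slc25a39 (0.86) and Ap1s1. For Slc27a1 they were Sept9 (0.98), Xylt1 and Gdpd5, for Slc27a3 Pigo (0.92), Pgbd5 and Pdgfb, and for Slc27a4 Tesk1 (0.93), Slc16a1 and Ldhd. Acsl1 was followed by Ring1 (0.97), 9930012K11Rik and Alox12, the platelet-type lipoxygenase. Of the 26 genes named as neighbours, Slc16a1 was altered and higher (log2 fold change 1.57, adjusted p = 0.00115) and Alox12 altered and lower (-1.23, adjusted p = 0.0140).

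To compare the genes with one another, CPM was divided by gene length in kilobases. Fabp5 had the highest level per kilobase in both groups, 271 ± 53.2 (SD, n = 6) in WT and 481 ± 69.2 in Pparg-/-epi mice, and in WT exceeded 98.6% of all genes. Acsl1 came next at 154 ± 36.9 and 113 ± 27.9, and its range did not overlap that of Fabp5 in either group. Fabp4 followed by the mean, at 52.5 ± 72.3 and 78.1 ± 70.5, but its mice spread from 6.32 to 182 in WT, overlapping the ranges of 7 other genes of the set.

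Below these, neighbours in the order overlapped. Slc27a3 (33.1 ± 10.5 CPM per kilobase in WT), Slc27a4 (29.4 ± 9.44) and Slc27a1 (17.3 ± 4.88) stood above Lpl (16.0 ± 18.4), Cd36 (5.50 ± 6.90) and Angptl4 (2.47 ± 2.96) by their means. Within mice, Slc27a4 exceeded Slc27a1 in 6 of 6 WT mice, while Slc27a3 exceeded Slc27a4 in 3 of 6. In Pparg-/-epi mice the order of Slc27a3 and Slc27a4 was the other way, with Slc27a4 at 31.0 ± 3.48 and Slc27a3 at 22.7 ± 5.86, and Slc27a4 was above in 6 of 6 mice. Angptl4 and Cd36 also changed places, at 6.89 ± 7.14 and 4.23 ± 3.93, within their spread.

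**Figure D4:**
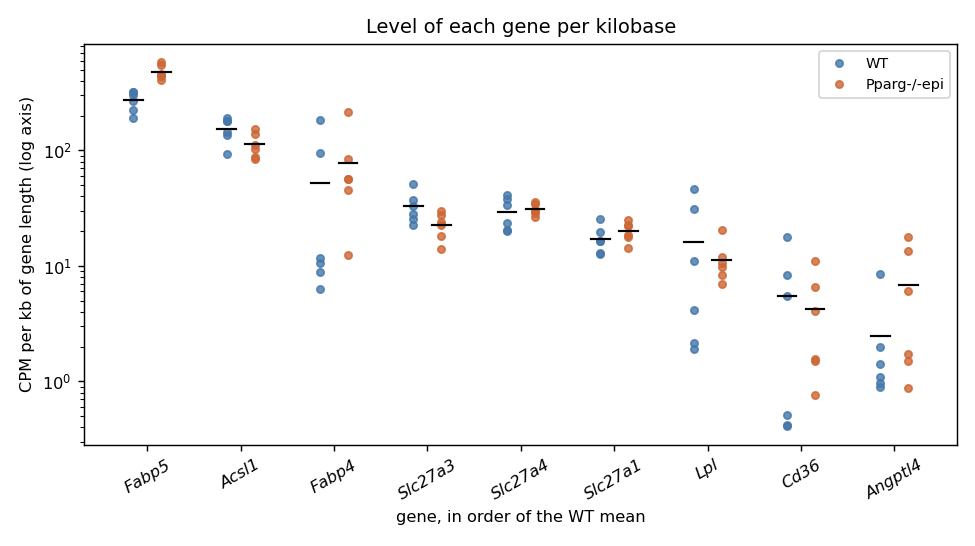
Level of each gene in CPM per kilobase of gene length, on a log axis, for 6 WT and 6 Pparg-/-epi mice, with a line at each mean. Fabp5 lies highest and does not overlap Acsl1 in either group, and the WT mice of Fabp4, Lpl and Cd36 are spread widest.

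The wider families of these genes were followed as 8 lists. To set beside their counts, 10.3% of all genes were altered, and 15.5% in the fit without WT replicate 2. Counts without that mouse are thus higher over the whole table. Of the other genes of the intracellular lipid binding family, 5 of the 11 considered were listed, and 2 were altered, both higher and both retinol carriers. Rbp2 went from 15.6 to 26.9 CPM in WT mice to 54.5 to 73.0 CPM in Pparg-/-epi mice (log2 fold change 1.67, SE 0.14, adjusted p = 3.53e-05). Rbp7 was low, at 2.75 CPM or less, with overlapping groups (1.78, adjusted p = 0.0322), and was altered in 4 of the 12 fits without 1 mouse, losing the call without any one of WT replicates 3, 4, 5 and 6 or Pparg-/-epi replicates 7, 8, 9 and 12. Its call was also lost in females alone (adjusted p = 0.262) and with the breeding blocks (adjusted p = 0.0754). The retinoic acid carriers Crabp1 and Crabp2 had log2 fold changes of 0.53 and 0.43, and the median of the list was 0.53.

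Among the other acyl-CoA synthetases and fatty acid transport proteins, 13 of 17 were listed and 2 were altered, both lower, with a list median of -0.43. Slc27a2, the very long chain member of the transport protein family, went from 2.02 to 6.32 CPM in WT to 0.601 CPM or less in Pparg-/-epi mice, where it had 0 to 7 counts (log2 fold change -4.36, SE 0.63, adjusted p = 9.42e-04). Acsl6 was lower as well (-1.44, SE 0.34, adjusted p = 0.0135), at 1.70 to 3.16 against 0.364 to 1.497 CPM. Both groups were also apart in Acsl5, whose log2 fold change of -0.44 (adjusted p = 0.00223) did not reach the fold required. Without WT replicate 2 the list had 4 higher and 2 lower genes. It had 3 lower genes in the likelihood ratio test, in DESeq2 and without WT replicate 4 or 6. The same number was lower with RNA integrity number or breeding blocks in the model.

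Of the genes around lipoprotein lipolysis, 16 of 21 were listed and 1, the receptor Lrp8, was altered and higher (log2 fold change 1.12, SE 0.25, adjusted p = 0.0106), with 1.28 to 3.40 CPM in WT and 4.32 to 6.25 CPM in Pparg-/-epi mice. Gpihbp1, which holds LPL on capillary endothelium, had 0 to 2.49 CPM in WT and 0.665 to 5.81 CPM in Pparg-/-epi mice (1.71, adjusted p = 0.136), and Lmf1, which LPL needs to mature, had a log2 difference of 0.24 (adjusted p = 0.313). The list had 4 higher genes without WT replicate 2, and Lrp8 was not altered in females alone. It had 2 without WT replicate 3 and with sex, RNA integrity number or breeding blocks in the model. In the angiopoietin-like family, 4 of 6 listed, Angptl7 was lower (-3.18, SE 0.90, adjusted p = 0.0319), but WT mice ran from 0.320 to 29.8 CPM and it was altered in 5 of the 12 fits without 1 mouse, losing the call without WT replicate 5, where the value was -1.67, and without any one of the 6 Pparg-/-epi mice, where it stayed between -3.32 and -3.04. The Angptl7 call was also lost in females alone, with the breeding blocks (adjusted p = 0.110) and with sex or RNA integrity number in the model. Without WT replicate 2 this family had 2 lower genes.

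Of the acyl-CoA binding, caveolar and CD36 partner genes, 14 of 16 were listed and 1 was altered. Thbs1, thrombospondin 1, a ligand of CD36, was higher (log2 fold change 2.05, SE 0.49, adjusted p = 0.0137), from 17.0 to 80.8 CPM in WT to 44.1 to 253 CPM in Pparg-/-epi mice, overlapping. Thbs1 was not altered in females alone or with the breeding blocks. Dbi, the acyl-CoA binding protein, had a log2 difference of 0.36 (SE 0.12, adjusted p = 0.0563).

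Genes for entry of fatty acids into mitochondria, 8 of 9 listed, included 2 lower ones. The carnitine transporter Slc22a5 went from 10.9 to 17.4 CPM to 5.93 to 9.26 CPM without overlap (log2 fold change -0.90, SE 0.15, adjusted p = 0.00238). Acacb, whose product makes the malonyl-CoA that holds back carnitine palmitoyltransferase, was lower (-1.99, SE 0.54, adjusted p = 0.0260) with overlapping groups, and was altered in 8 of the 12 fits without 1 mouse, the exceptions being those without WT replicate 5 or Pparg-/-epi replicate 9, 11 or 12. The Acacb call was also lost in females alone (adjusted p = 0.186). The list had 3 lower genes without WT replicate 2 or 3, in the likelihood ratio test, in DESeq2 and with RNA integrity number in the model. It had 1 without WT replicate 5, without Pparg-/-epi replicate 9, 11 or 12, and in females alone. Cpt1a, the gate enzyme itself, differed by 0.36 on the log2 scale (adjusted p = 0.140).

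Of 24 other textbook PPAR targets considered, 21 were listed, and 0 passed edgeR's quasi-likelihood test at the fold required, with 4 at an unadjusted p under 0.05, 0 altered in the likelihood ratio test and 1 lower in DESeq2. With sex in the model 1 was lower, and with RNA integrity number in the model 2 were lower. Among all 14533 genes, 10.3% were altered and 4282 had an unadjusted p under 0.05 in the quasi-likelihood test. Whether the list differs from that background was not tested. The list median was -0.32, and 0.22 without WT replicate 2, where 2 genes were higher. Among the 12 PPAR receptors and partners, all listed, Ppara was lower without overlap (-1.31, SE 0.14, adjusted p = 1.67e-04), at 28.3 to 41.6 against 10.4 to 16.2 CPM. Ppargc1b was higher (0.82, SE 0.16, adjusted p = 0.00456), a call lost in females alone, where the value was 0.87 (adjusted p = 0.0705). Ppard did not overlap between the groups, and its log2 fold change of 0.59 (SE 0.11, adjusted p = 0.00370) was just under the size required. This list had 2 higher genes and 1 lower without WT replicate 1 or 2, without Pparg-/-epi replicate 10, 11 or 12, and with age in the model.

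**Figure D5:**
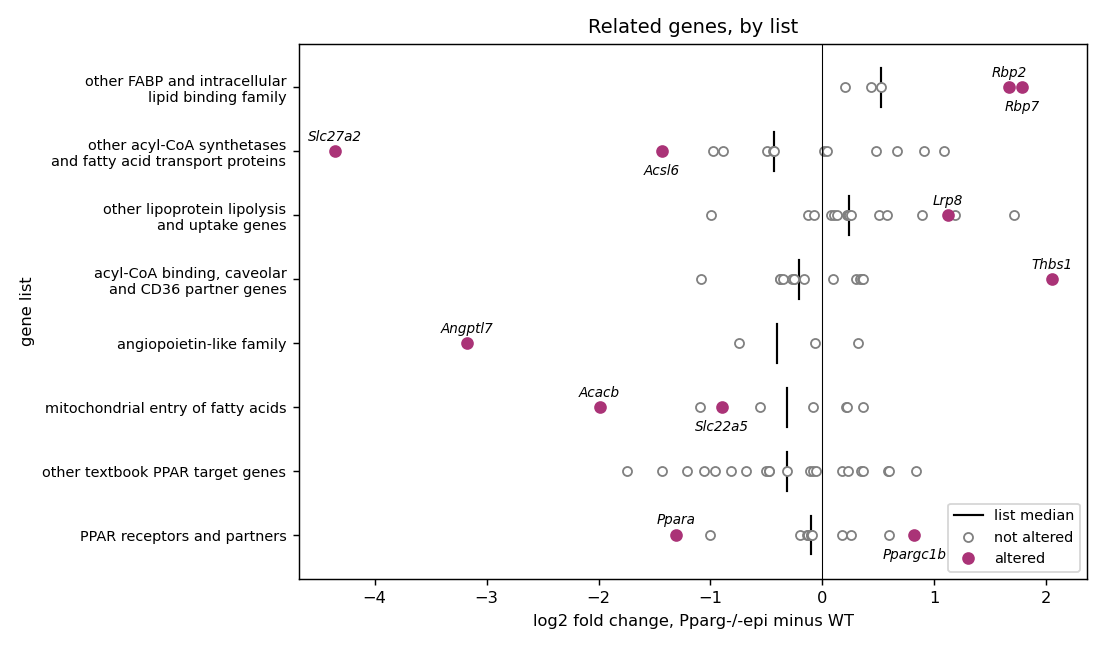
Log2 fold change, Pparg-/-epi minus WT, of the genes of 8 lists related to fatty acid uptake. Filled points are altered genes, open points the others and vertical lines list medians, and altered genes range from -4.36 (Slc27a2) to 2.05 (Thbs1).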

How the data were processed

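Scraped dorsal epidermis of 12 mice was sequenced, 6 WT and 6 Pparg-/-epi. Per the labels and the study's methods, the authors aligned reads with STAR 2.5.2b to mm10, removed multi-mapped reads, and deposited unnormalized counts per refGene gene from featureCounts (Subread 1.5.1). The table lists 14533 genes, each above 0.5 CPM in at least 6 mice, and 2800 blank rows were dropped. Gene lengths are those of the deposited table.

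Counts were compared with edgeR 4.0.16 (R 4.3.3), TMM scaling and the quasi-likelihood test, with a model of genotype alone and p-values adjusted by Benjamini-Hochberg across the table. Log2 CPM used a prior count of 2. The study's own likelihood ratio test, DESeq2 1.42.0, other scalings, a filter on low counts, covariates, females alone and 12 fits without 1 mouse were alternatives. Breeding numbers were split into earlier and later blocks. The fitting was tested on simulated data. The members and gene lists were chosen with earlier results of these data known. Some genes under the naming rule, and their values in lists and figures, are not reported here. Named genes were the members, the altered genes of each list, genes whose role bears directly on a member, the 3 genes most like each member and abundant markers, with Acsl5, Crabp1, Crabp2 and Cpt1a added after their values were seen. Libraries were assigned to mice by the numbers in the labels and the study's sample sheet, whose ages differ from the labels' for some mice. The labels' ages were used. Confidence intervals are for the log2 fold change between the groups, with an error estimated from the spread between mice. They are not ranges of the values of single mice. One count was worth 0.052 to 0.107 CPM. Shared sequence was measured on GENCODE vM21 transcripts. Figures were drawn with matplotlib 3.10.9.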

Additional observations from a re-analysis of the deposited data

Results flagged for a closer look

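A mouse was marked where its gap to the nearest other mouse of its group, divided by the range of the group, exceeded Dixon's 95% critical value. Chance alone does this in about 1 of 20 groups of normally distributed values. The values here were CPM without a log, for which that rate need not hold. Of 38 sets of values 9 were marked, and many of these share a mouse. Among the genes themselves, Angptl4 in WT replicate 2 (16.1 CPM, next 3.77 CPM), Fabp4 in Pparg-/-epi replicate 8 (137 CPM, next 53.5 CPM) and Lpl in Pparg-/-epi replicate 8 (82.8 CPM, next 48.5 CPM) stood apart.

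Among the summed cell type markers, skeletal muscle stood apart in WT replicate 5 (13906 CPM) and Pparg-/-epi replicate 8 (579 CPM), hair shaft in Pparg-/-epi replicate 8 (513 CPM), Langerhans cells in WT replicate 2 (3760 CPM), fibroblasts in WT replicate 1 (34900 CPM) and suprabasal keratinocytes, on the low side, in WT replicate 2 (16485 CPM).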

How the results depend on the processing

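Fabp5 kept its direction and its call in all 22 alternatives, with log2 fold changes from 0.75 to 1.12 and adjusted p up to 0.0197. The number of altered genes among the 9 that were higher was 1 in every alternative but one and ranged from 1 to 2 over the fits that left out 1 mouse, the second being Angptl4 without WT replicate 2, and the number lower was 0 throughout. Over the fits that left out 1 mouse, the log2 fold change ran from -0.068 (without Pparg-/-epi replicate 8) to 1.56 (without WT replicate 2) for Fabp4, from -0.95 to 0.48 for Cd36 and from -0.77 to 0.17 for Lpl (without the same 2 mice), and from -0.014 (without WT replicate 4) to 0.18 for Slc27a4. Signs also turned for Cd36 with age as a covariate (0.0064) and for Angptl4 with the breeding blocks (-0.17). The cause was not tested. No paired analysis was possible because replicate numbers are not shared and the groups have 1 breeding number in common, that of WT replicate 2 and Pparg-/-epi replicate 10. Slc27a3 and Acsl1, the genes nearest to a lower call, had unadjusted p of 0.0281 and 0.0395 in the quasi-likelihood test. With 6 mice a group, the intervals of Fabp4, Cd36, Lpl and Angptl4 are the widest of the 9 and cross 0. Cd36 and Angptl4 rest on as few as 15 and 16 counts in a WT mouse.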
